A study of Mus musculus with 8 samples.

Results

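Molecular chaperones were followed in mouse gallbladder: 202 probe sets, which stand for 83 genes, of the 45101 probe sets and 18193 singly named genes on the array. A probe set was taken when its only annotated symbol began with Hspa, Hspb, Hspd, Hspe, Hsph, Hsp90, Dnaja, Dnajb or Dnajc, was Cct followed by a digit, or was Tcp1 or Bag3. The choice used names alone and no measured value. It also takes Hspbp1 and Hspbap1, which bind heat shock proteins but are not small heat shock proteins themselves, and it leaves out 3 probe sets that carry a second symbol. Hsp90ab1 was not analysed here, since no probe set bears its symbol alone.

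Heat shock proteins are ATP-driven or holding chaperones that keep other proteins from misfolding, and many are made in greater amount when cells meet heat or other stress. The HSP70 proteins (Hspa) bind short unfolded stretches, J-domain proteins (Dnaja, Dnajb, Dnajc) bring them clients and start their ATPase, and nucleotide exchange factors such as Hspa4 and Hsph1 let the client go. Small heat shock proteins (Hspb) hold unfolded clients without ATP and are abundant in muscle, whereas the ring-shaped chaperonin (Tcp1 and the Cct subunits) folds actin and tubulin.

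All the animals were female mice of the B6.V-lepob strain, which lack functional leptin, the hormone by which fat tissue signals energy stores, so the saline controls carry the same mutation. They received recombinant mouse leptin at 5 µg per g body weight, or saline, into the peritoneum daily for 4 weeks (12 mice per treatment, 24 in all). The gallbladders of fasted mice, aged 12 weeks, were removed, and RNA of 3 gallbladders made 1 pool, giving leptin pools 5 to 8 and saline pools 1 to 4, each on 1 Affymetrix Mouse 430 2.0 array. Values are MAS 5.0 signals, the array software's background-corrected brightness of a probe set, and n = 4 pools per treatment throughout.

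The arrays differed in ways that bear on these genes. Leptin pool 7 stood apart on the second principal component (16.4% of the variance) at -49.1, where the other pools ran between -12.6 and 23.7. The ratio of actin's 3' to its 5' probe set, higher where RNA is broken or cDNA is short, averaged 1.89 ± 0.207 in leptin pools and 1.60 ± 0.0882 in saline pools (SD; two-sided exact permutation p = 0.0571, 0.0762 adjusted over 4 array measures). The same ratio for GAPDH averaged 0.818 ± 0.0248 in leptin pools and 0.813 ± 0.0409 in saline pools (SD; exact permutation p = 0.857). Probe sets above background, a signal of 46.0, were 69.4% ± 1.10 in leptin pools and 64.9% ± 1.49 in saline pools (SD; exact p = 0.0286, the smallest that 4 against 4 allows, and 0.0571 adjusted). The median signal averaged 98.9 ± 5.74 in leptin pools and 81.8 ± 4.18 in saline pools, with no overlap (SD, exact permutation p = 0.0286, 0.0571 adjusted). Of marker lists for the cells of the sample, all 8 tested leukocyte genes and all 4 tested B and plasma cell genes were higher with leptin, and 4 of 9 gallbladder epithelium genes were lower. Of 5 adipocyte genes 1 was lower, the lipid droplet gene Cidec at -2.03, and 4 were below 0 at an unadjusted p under 0.05 (limma). Of 5 hepatocyte genes 1 was higher, the apolipoprotein Apoa1 at 0.70. The 6 fibroblast genes did not pass, though 3 were above 0 at an unadjusted p under 0.05 (limma). The 4 lower epithelial genes were the keratins Krt8, Krt18, Krt7 and Krt20. Krt19 at -0.40, Epcam at -0.0062, Cdh1 at -0.17, Cldn4 at -0.25 and Muc1 at 0.028 did not pass. Among all tested genes 3.98% were lower and 4.29% were higher. Epithelial marker signals, keratins included, summed to 32182 to 36184 in leptin pools and 38859 to 48246 in saline pools. Smooth muscle markers summed to 34783 to 44245 in leptin pools and 36296 to 48426 in saline pools. All the tested epithelial and smooth muscle markers were above background in every pool, as the tissue label has it. The 5 hepatocyte genes, of a cell type outside that label, were bright in both treatments. Their signals summed to 69491 to 80361 in leptin pools and 53825 to 83362 in saline pools, and the source of these transcripts was not tested. In bulk tissue, fewer cells of a type and less RNA per cell cannot be told apart, and the part these cell markers have in the results was not tested.

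A minority of chaperone genes differed between the treatments, most of them lower with leptin. Of the 69 genes bright enough to test, 7 fell (Hspb7, Hspb8, Hspa4, Dnajc5, Dnajb6, Cct2 and Cct7), 1 rose (Dnajc12) and 61 did not pass (limma, Benjamini-Hochberg adjusted p under 0.05 over all probe sets). That is 10.1% lower and 1.45% higher, where among all 11719 tested genes 3.98% were lower, 4.29% were higher and so 8.27% were called. Each gene is read from its brightest probe set, and a log2 fold change is leptin minus saline of log2(signal + 8.2), with its standard error (SE). The median log2 fold change was -0.09 over the 69 members and 0.02 over all genes. The median of all genes was 0.074 with no brightness filter and -0.047 above the 75th percentile of brightness. Members were not matched to other genes by brightness. All 4 leptin pools lay below all 4 saline pools in 14 members (20.3%) and above them in 3 (4.35%), against 8.58% and 8.45% of all genes. Fitted values were below 0 in 44 members (63.8%), against 47.4% of all genes. No test was made of the list as a whole.

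The calls varied with the setting. With the actin ratio as a covariate, only Hspb8 passed, where 1.9% of all genes were lower and 1.22% were higher. With arrays centred on their medians, which shifts the median gene to -0.23, 25 members passed, all of them lower. Calls of lower rose over the whole array as well, to 3586 of the 22519 tested probe sets, against 763 in the main fit. All 69 tested members lay above background in every pool. The 14 untested members never passed a signal of 148.8, and 3 of them were under background in every pool. They are Cct6b, Cct8l1, Dnajb13, Dnajb3, Dnajb7, Dnajc27, Dnajc5b, Dnajc5g, Dnajc6, Hspa12a, Hspa12b, Hspa1l, Hspb3 and Hspb9.

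**Figure D1:**
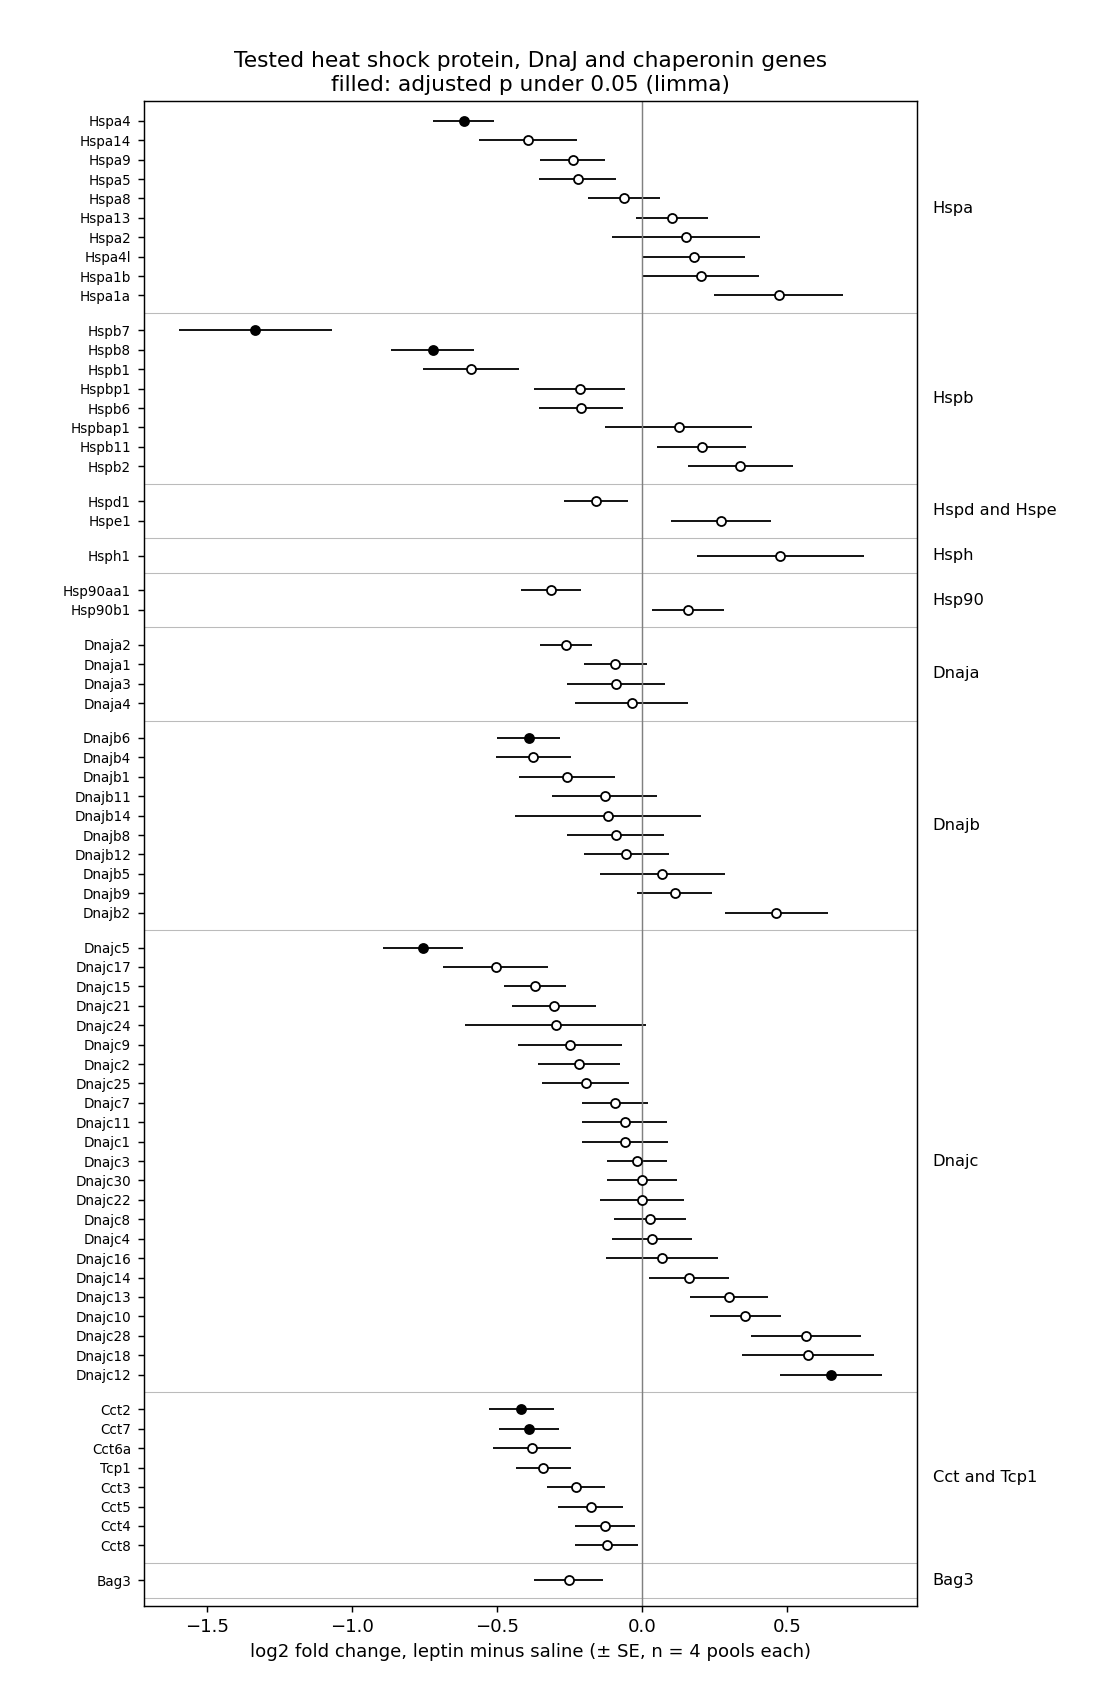
Log2 fold change (leptin minus saline, x axis) of the 69 tested member genes by family (y axis). Points are fitted values with bars of 1 SE, filled where the limma adjusted p was under 0.05 and open otherwise. Most lie within 0.5 of 0. The 8 chaperonin subunits lie to the left of 0 (Cct4 was at 0.0042 under quantile scaling and 0.049 with probe sets averaged).

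The small heat shock proteins held the member with the steepest fall. Hspb7, a small heat shock protein known from heart and other muscle, had signals of 239, 252, 424 and 137 in leptin pools 5 to 8, against 691, 722, 656 and 474 in saline pools 1 to 4. Its log2 fold change was -1.33 ± 0.26 (SE; limma adjusted p = 0.0102), and every leptin pool lay below every saline pool. A second Hspb7 probe set gave -0.84 ± 0.21 (limma adjusted p = 0.0314). Hspb8, which works with Bag3 to send misfolded proteins to autophagy, had 720, 562, 646 and 671 in leptin pools, against 872, 1172, 1314 and 988 in saline pools. That is -0.72 ± 0.14 (limma adjusted p = 0.01), again with no overlap. The second Hspb8 probe set fell by 0.69 on the log2 scale (limma adjusted p = 0.0254), while the dimmest was at 0.02 (limma adjusted p = 0.979). Bag3 itself did not pass, with 460, 501, 435 and 471 in leptin pools, against 505, 577, 562 and 588 in saline pools (-0.25 ± 0.12, limma adjusted p = 0.218), although its pools did not overlap either.

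Hspb1, the actin-binding small heat shock protein called Hsp25 in mice, lay just outside the threshold on its brightest probe set. It had 3148, 3320, 5518 and 3529 in leptin pools, against 4699, 5545, 6697 and 6019 in saline pools (-0.59 ± 0.17, limma adjusted p = 0.0508). Leptin pool 7 alone reached into the saline range, and without that pool the value was -0.77 (limma adjusted p = 0.0033). Over 20 alternatives it passed in 7 (limma adjusted p 0.0024 to 0.470). A second Hspb1 probe set fell, with 2099, 2454, 3882 and 2776 in leptin pools, against 3793, 4913, 5017 and 4436 in saline pools (-0.72 ± 0.16, limma adjusted p = 0.0207). Hspb6, known for its part in smooth muscle relaxation, had 513, 436, 622 and 592 in leptin pools, against 527, 688, 648 and 633 in saline pools (-0.21 ± 0.14, limma adjusted p = 0.409). Hspb2, another muscle member, was at 0.34 without passing. Of the 8 tested genes with an Hspb symbol 2 fell and the other 6 did not pass, with a median of -0.21. They include Hspb11 at 0.21, and Hspbp1 at -0.21 and Hspbap1 at 0.13, which are not small heat shock proteins. Of all tested genes 3.98% were lower and 47.4% were fitted below 0. Beside the muscle-rich small heat shock proteins, 1 of 8 smooth muscle markers was called, the enteric actin Actg2 at -0.58 (limma adjusted p = 0.0289). Of those 8 markers, 7 were fitted below 0 with arrays scaled to their trimmed means. The intermediate filament desmin (Des) was at -0.47 and calponin (Cnn1) at -0.45 without passing, and the myosin heavy chain Myh11 was at -0.10 (limma adjusted p = 0.063, 0.078 and 0.726). Of the skeletal muscle list only 1 gene was bright enough to test, and it did not pass. With the actin ratio as a covariate, Hspb8 stayed lower at -0.96 (limma adjusted p = 0.0215), whereas Hspb7 at -1.06 and Hspb1 at -0.32 did not pass (limma adjusted p = 0.155 and 0.470).

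The HSP70 family gave 1 call among 10 tested genes, for an exchange factor, where 8.27% of all tested genes were called. Hspa4, also called Apg-2, is an HSP110-type protein that releases nucleotide from HSP70. It had 822, 776, 824 and 805 in leptin pools, against 1182, 1180, 1216 and 1390 in saline pools, a fall of -0.61 ± 0.11 (limma adjusted p = 0.0044). Both groups were tight and did not overlap. Its 2 dimmer tested probe sets were at 0.09 and 0.32 and did not pass. The mean over all 4 of its probe sets, with the untested dim probe set included, was -0.14 (limma adjusted p = 0.717). The remaining 9 tested Hspa genes did not pass, and the family's median was 0.02.

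The constitutive HSP70 of the cytosol, Hspa8, had 7395, 8038, 9317 and 7008 in leptin pools, against 6764, 7916, 8914 and 9677 in saline pools, which overlapped throughout (-0.06 ± 0.12, limma adjusted p = 0.804). Hspa9, the HSP70 of mitochondria, had 2552, 2151, 2022 and 2235 in leptin pools, against 2273, 2595, 2805 and 2912 in saline pools (-0.24 ± 0.11, limma adjusted p = 0.221). Both genes had overlapping groups and missed the threshold.

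None of the chaperones best known for stress induction passed on its brightest probe set. Hspa1a, a heat-inducible HSP70, had 337, 449, 704 and 338 in leptin pools, against 263, 306, 398 and 296 in saline pools (0.47 ± 0.22, limma adjusted p = 0.220). Its neighbour Hspa1b had 2087, 2618, 4069 and 1975 in leptin pools, against 1811, 2448, 2616 and 2146 in saline pools (0.20 ± 0.20, limma adjusted p = 0.574). Array probes cannot cleanly separate these near-identical copies. Hsph1, the inducible HSP110, had 407, 362, 955 and 405 in leptin pools, against 246, 293, 445 and 462 in saline pools (0.48 ± 0.29, limma adjusted p = 0.344). In all 3 genes leptin pool 7 was the highest of the 8 pools. The same held for the endoplasmic reticulum genes Hsp90b1 (4827) and Dnajb9 (2502), given below. Without pool 7 Hspa1a was at 0.25, Hspa1b at -0.016 and Hsph1 at 0.16, and none passed. Dnajb1, the heat-inducible J-domain partner known as Hsp40, had 358, 514, 447 and 634 in leptin pools, against 637, 507, 614 and 545 in saline pools (-0.26 ± 0.17, limma adjusted p = 0.380).

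Hsp90aa1, the inducible cytosolic HSP90, had 2991, 3340, 3742 and 3391 in leptin pools, against 4122, 3864, 4020 and 4745 in saline pools (-0.31 ± 0.10, limma adjusted p = 0.0876). The pools did not overlap, yet the difference missed the threshold. A dimmer Hsp90aa1 probe set fell by 0.55 ± 0.14 on the log2 scale (limma adjusted p = 0.0380), with 1524, 1393, 2000 and 1295 in leptin pools, against 1958, 2129, 2296 and 2651 in saline pools. Its groups overlapped, since leptin pool 7 lay above saline pool 1. The remaining tested Hsp90aa1 probe set was at -0.32 ± 0.23 with overlapping groups and did not pass (limma adjusted p = 0.425).

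**Figure D2:**
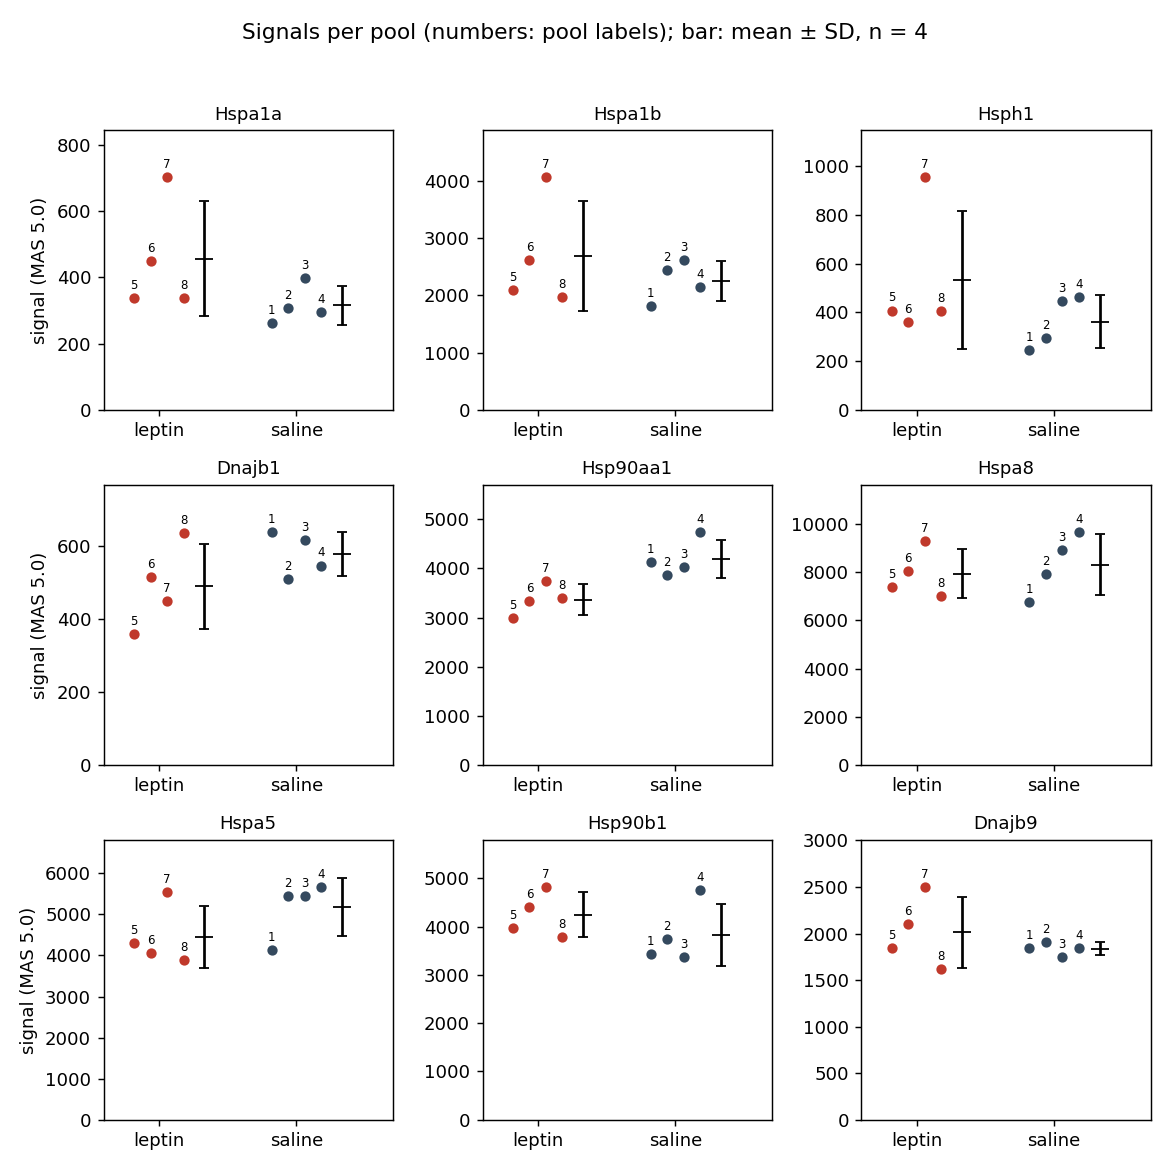
MAS 5.0 signal (y axis, from 0) of 9 stress-linked and endoplasmic reticulum chaperones in each pool, leptin at left and saline at right, with mean ± SD bars. Leptin pool 7 is the highest of its group in every gene shown but Dnajb1. Only Hsp90aa1 has groups that do not overlap, and none of the 9 passed.

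The endoplasmic reticulum members gave no call. Hspa5, the HSP70 of the endoplasmic reticulum (BiP), had 4309, 4061, 5544 and 3878 in leptin pools, against 4134, 5459, 5442 and 5674 in saline pools (-0.22 ± 0.13, limma adjusted p = 0.341). Hsp90b1, the HSP90 of the same compartment, had 3971, 4408, 4827 and 3791 in leptin pools, against 3428, 3749, 3362 and 4765 in saline pools (0.16 ± 0.13, limma adjusted p = 0.475). Both pairs of groups overlapped, in opposite fitted directions. Dnajb9, a J-domain protein induced by unfolded protein in that compartment, had 1840, 2100, 2502 and 1615 in leptin pools, against 1845, 1914, 1752 and 1844 in saline pools (0.11 ± 0.13, limma adjusted p = 0.639). Dnajc3, a lumenal J-domain protein that can also hold back the kinase Eif2ak3, had 1499, 1292, 1372 and 1207 in leptin pools, against 1367, 1314, 1334 and 1403 in saline pools (-0.02 ± 0.10, limma adjusted p = 0.944). Dnajc10, a disulfide reductase of the compartment, did not overlap, at 1029, 834, 935 and 985 in leptin pools, against 810, 680, 661 and 798 in saline pools, but also missed the threshold (0.36 ± 0.12, limma adjusted p = 0.0957). Of 29 other genes of endoplasmic reticulum folding and the unfolded protein response, 1 rose and 1 fell, and their median was 0.01. Over all tested genes 8.27% were called. Ern1, the sensor kinase that splices Xbp1 RNA, had 708, 648, 653 and 627 in leptin pools, against 451, 468, 410 and 492 in saline pools (0.53 ± 0.12, limma adjusted p = 0.0187). Sec63, which couples BiP to the translocation channel, had 692, 661, 679 and 658 in leptin pools, against 936, 878, 824 and 979 in saline pools (-0.42 ± 0.11, limma adjusted p = 0.0364). Over 20 alternative runs Ern1 lost its call in 4 and Sec63 in 12. Edem1, which hands misfolded glycoproteins to degradation, was at 0.47 ± 0.13 and missed the threshold (limma adjusted p = 0.0526).

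J-domain proteins were the most numerous members, and their calls went both ways. Of the 23 tested Dnajc genes 1 fell and 1 rose, with a median of -0.02. Of the 10 tested Dnajb genes 1 fell, with a median of -0.10. Over all tested genes 3.98% fell and 4.29% rose. The 4 Dnaja genes did not pass (limma, 1 of them at an unadjusted p under 0.05), with a median of -0.09. Dnajc5, cysteine string protein, which guards vesicle fusion proteins, had 874, 897, 925 and 1229 in leptin pools, against 2020, 1511, 1555 and 1551 in saline pools (-0.76 ± 0.14, limma adjusted p = 0.0067). No pool overlapped, and each group had an end pool far from its others, leptin 8 and saline 1. Of its 5 tested probe sets 2 fell, the other at -0.58 ± 0.11 (limma adjusted p = 0.0104), and the dimmest was at 0.03.

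Dnajb6, which keeps aggregation-prone proteins soluble, had 1337, 1222, 1157 and 1494 in leptin pools, against 1740, 1745, 1615 and 1712 in saline pools (-0.39 ± 0.11, limma adjusted p = 0.0476). Its groups did not overlap, but the call was lost when any pool but leptin 8 was left out (limma adjusted p up to 0.123). Its other 2 probe sets were at -0.12 and -0.19 without passing. Dnajb4, a partner of HSP70 in the cytosol, did not pass on its brightest probe set, with 598, 696, 720 and 718 in leptin pools, against 764, 981, 1018 and 808 in saline pools (-0.38 ± 0.13, limma adjusted p = 0.102). A dimmer Dnajb4 probe set fell, with 203, 134, 107 and 162 in leptin pools, against 254, 293, 396 and 291 in saline pools (-1.01 ± 0.21, limma adjusted p = 0.0127), and the remaining one was at 0.45 without passing. Those 3 probe sets therefore gave a call, no call and the opposite sign.

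Dnajc12, a J-domain partner of the aromatic amino acid hydroxylases, was the member that rose. It had 794, 666, 470 and 844 in leptin pools, against 420, 495, 426 and 378 in saline pools (0.65 ± 0.18, limma adjusted p = 0.0433). Leptin pool 7 lay under saline pool 2, and without pool 7 the value was 0.83 (limma adjusted p = 0.0054). Leaving out any 1 of the other pools ended the call, with adjusted p up to 0.115, and with the actin ratio as a covariate it was at 0.27 (limma adjusted p = 0.535). Among uncalled J-domain genes, Dnajc18 was at 0.57 ± 0.23 (limma adjusted p = 0.151), Dnajb2, a ubiquitin-binding member known from neurons, at 0.46 ± 0.18 (limma adjusted p = 0.136) and Dnaja2, a main HSP70 partner, at -0.26 ± 0.09 (limma adjusted p = 0.102). Dnaja1, a farnesylated partner of HSP70, had 1812, 1760, 2199 and 1801 in leptin pools, against 1814, 1988, 2207 and 2048 in saline pools (-0.09 ± 0.11, limma adjusted p = 0.654).

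**Figure D3:**
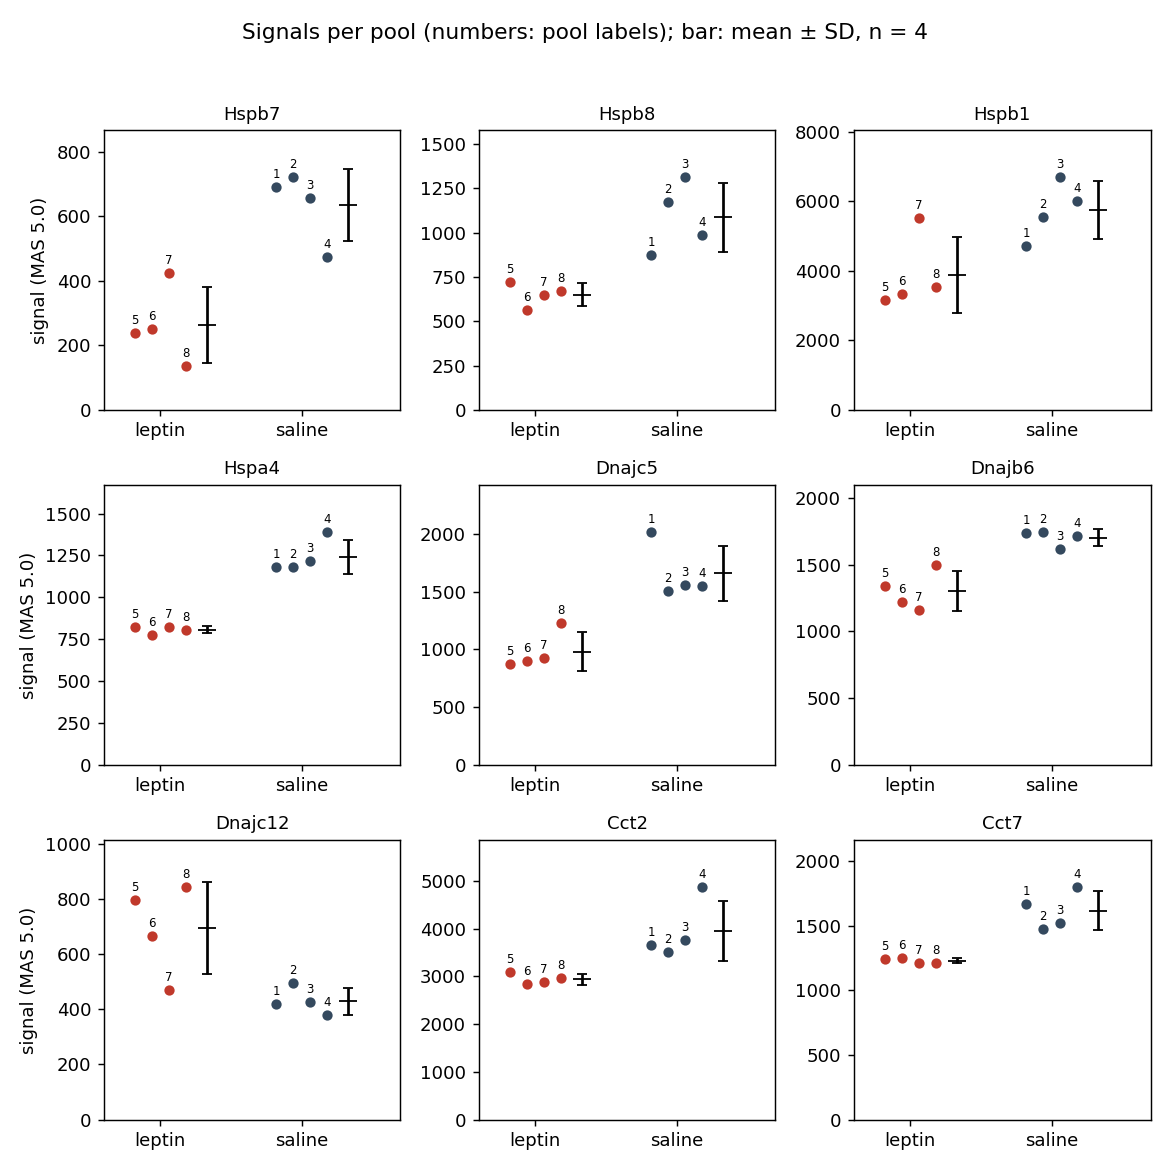
MAS 5.0 signal (y axis, from 0) in each pool, leptin at left and saline at right, with mean ± SD bars, for the 8 called members and Hspb1. Leptin pools lie below all saline pools in the 7 genes that fell; in Dnajc12 leptin pool 7 overlaps saline, and in Hspb1 the same pool reaches saline levels.

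In the chaperonin, 2 of 8 tested subunits fell, where 3.98% of all tested genes were lower and 47.4% had fitted values below 0. All 8 had fitted values below 0 (median -0.28), except that Cct4 was at 0.0042 under quantile scaling and at 0.049 with its probe sets averaged. The subunits share 1 complex and the same arrays, so they are not separate observations of the treatment. Cct2, the beta subunit of the ring, had 3088, 2831, 2872 and 2958 in leptin pools, against 3661, 3509, 3768 and 4875 in saline pools (-0.42 ± 0.11, limma adjusted p = 0.0426). Cct7, the eta subunit, had 1240, 1250, 1214 and 1213 in leptin pools, against 1671, 1478, 1520 and 1802 in saline pools (-0.39 ± 0.10, limma adjusted p = 0.0395). Neither gene's pools overlapped. Both calls stood close to the threshold: Cct7 lost it without any single pool (limma adjusted p 0.0561 to 0.0952), and Cct2 without any but saline 1 (up to 0.111). The other Cct7 probe set was at -0.36 and the other 2 of Cct2 at -0.38 and -0.16, none of which passed.

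Tcp1, the alpha subunit, had 2039, 1794, 1838 and 1799 in leptin pools, against 2356, 2213, 2362 and 2531 in saline pools and did not overlap (-0.34 ± 0.10, limma adjusted p = 0.0515). Cct6a, the zeta subunit, had 3106, 2424, 2517 and 2481 in leptin pools, against 2703, 3439, 3451 and 4202 in saline pools (-0.38 ± 0.13, limma adjusted p = 0.110), and without saline 1 it was at -0.49 (limma adjusted p = 0.0350). Both lay near the called subunits in size but outside the threshold. Cct3, the gamma subunit, had 3534, 3547, 3973 and 3428 in leptin pools, against 3925, 3956, 4209 and 4911 in saline pools (-0.23 ± 0.10, limma adjusted p = 0.198). Cct5, the epsilon subunit, had 1768, 1653, 1785 and 1534 in leptin pools, against 1822, 1673, 1954 and 2201 in saline pools (-0.18 ± 0.11, limma adjusted p = 0.365). These 2 overlapped, and so did the next pair. Cct4, the delta subunit, had 2672, 2536, 2539 and 2413 in leptin pools, against 2684, 2572, 2614 and 3273 in saline pools (-0.13 ± 0.10, limma adjusted p = 0.492). Cct8, the theta subunit, had 1140, 1109, 1327 and 1125 in leptin pools, against 1316, 1143, 1295 and 1362 in saline pools (-0.12 ± 0.11, limma adjusted p = 0.537).

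Saline pool 4 was the highest of the 8 pools in all 8 subunits. Each subunit's signal divided by its own saline mean averaged 0.865, 0.803, 0.850 and 0.792 over the subunits in leptin pools, against 0.951, 0.920, 0.982 and 1.15 in saline pools. Without saline 4 the subunits' median log2 fold change was -0.22, against -0.28 with it. Quantile and loess scaling brought that median to -0.16 and -0.15, and neither Cct2 nor Cct7 passed under them. Cct6b, a testis-type subunit too dim to test, averaged 37.1 in leptin pools and 11.3 in saline pools, where background was a signal of 46.0.

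**Figure D4:**
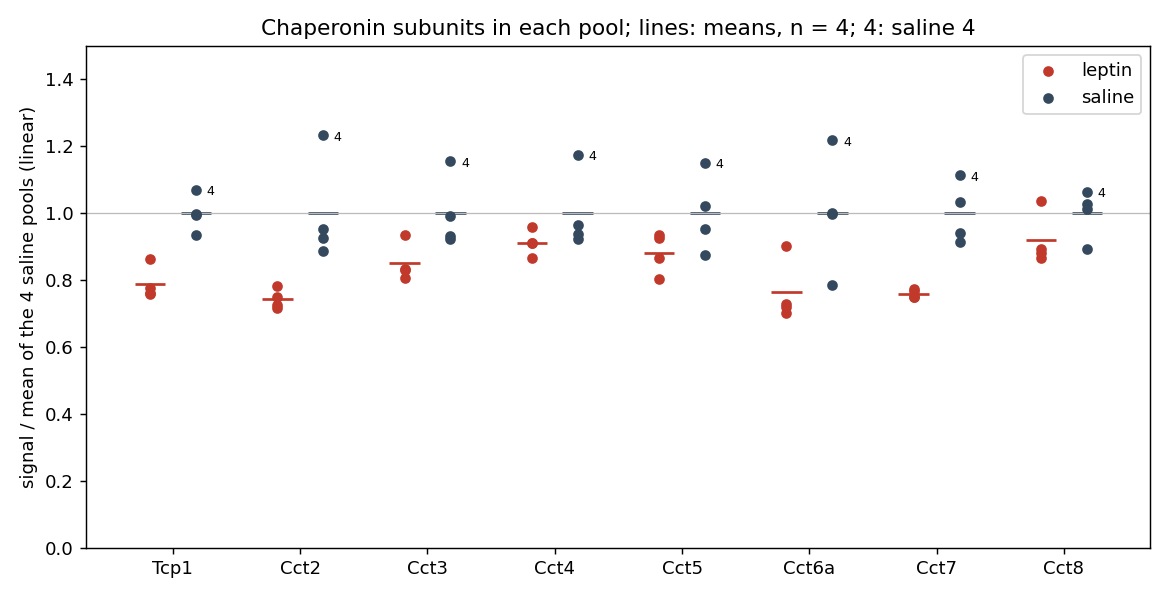
Signal of each chaperonin subunit in each pool divided by that subunit's own saline mean (y axis, linear), with leptin pools left of saline pools. Averaged over the 8 subunits, leptin pools lie at 0.792 to 0.865 and saline pools at 0.920 to 1.15, and saline pool 4 is the highest for all 8.

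Other proteins that work with the chaperonin, and its clients, were read from a list of 18 genes. Of 16 tested, 4 fell and the other 12 did not pass, with a median of -0.16, where 3.98% of all tested genes fell. Tubb2a, a beta tubulin and so a chaperonin client, had 1037, 1274, 964 and 1072 in leptin pools, against 2614, 3328, 2797 and 2250 in saline pools (-1.33 ± 0.13, limma adjusted p = 7.9e-05). Tubb5, a widely expressed beta tubulin, had 1308, 1405, 1761 and 1291 in leptin pools, against 2160, 1802, 2386 and 2674 in saline pools (-0.64 ± 0.14, limma adjusted p = 0.0171). In both tubulins every leptin pool lay below every saline pool. Pfdn2, a subunit of prefoldin, which hands clients to the ring, had 515, 436, 616 and 512 in leptin pools, against 764, 758, 629 and 761 in saline pools (-0.49 ± 0.13, limma adjusted p = 0.0480). Actg1, the cytoplasmic gamma actin, also fell at -0.29 ± 0.08 (limma adjusted p = 0.0495) and is named after its value was seen. Of these 4, Tubb2a kept its call in all 20 alternative runs, while Tubb5 lost it in 8 and Pfdn2 in 11.

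Mitochondrial chaperonin genes did not pass. Hspd1 (HSP60) had 4764, 4067, 4098 and 4395 in leptin pools, against 4025, 4724, 5369 and 5329 in saline pools (-0.16 ± 0.11, limma adjusted p = 0.412). Its lid Hspe1 (HSP10) had 3086, 2188, 3001 and 2657 in leptin pools, against 2267, 3210, 1968 and 1756 in saline pools (0.27 ± 0.17, limma adjusted p = 0.367). The groups overlapped in both. Dnajc15, a J-domain protein of the mitochondrial inner membrane, lay at 859, 818, 837 and 823 in leptin pools, against 1033, 1037, 1027 and 1234 in saline pools, with no overlap (-0.37 ± 0.11, limma adjusted p = 0.0585). Among 18 genes of mitochondrial import and proteolysis, 2 fell and the other 16 did not pass, with a median of -0.07. The share that fell was 3.98% over all tested genes. Timm23, the inner membrane import channel, had 2234, 2112, 1919 and 2154 in leptin pools, against 2631, 3058, 3204 and 3247 in saline pools (-0.52 ± 0.10, limma adjusted p = 0.0097). Tomm20, an outer membrane import receptor, had 3612, 4162, 3794 and 4065 in leptin pools, against 5806, 5047, 4740 and 5471 in saline pools (-0.43 ± 0.10, limma adjusted p = 0.0203). Both had groups that did not overlap. Timm23 kept its call in all 20 alternative runs, while Tomm20 lost it in 7. Timm17a, another import subunit, was at -0.37 without passing (limma adjusted p = 0.0866).

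Heat shock factors and co-chaperones outside the symbol families gave 2 falls among 25 tested genes, with a median of -0.05. The other 23 did not pass, and over all tested genes 3.98% fell. Fkbp5, an HSP90 co-chaperone of the glucocorticoid receptor and itself a glucocorticoid target, had 1194, 1095, 1386 and 757 in leptin pools, against 2982, 2420, 2082 and 2673 in saline pools (-1.21 ± 0.17, limma adjusted p = 0.0012). Tomm70a, the outer membrane receptor for clients that HSP70 and HSP90 deliver, had 751, 719, 630 and 710 in leptin pools, against 950, 923, 990 and 978 in saline pools (-0.45 ± 0.11, limma adjusted p = 0.0267). In both genes the groups did not overlap. Fkbp5 lost its call in 1 of 20 alternative runs and Tomm70a in 11. The transcription factor Hsf2 had 131, 112, 133 and 117 in leptin pools, against 73.2, 90.7, 90.2 and 82.9 in saline pools (0.51 ± 0.21, limma adjusted p = 0.169). Hsf1, the main activator of heat shock genes, was not matched to a probe set of its own. Ppp5c, a phosphatase bound to HSP90, was at -0.35 without passing (limma adjusted p = 0.0875).

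Heat shock factors bind heat shock elements, and the unfolded protein response acts through endoplasmic reticulum stress elements. Windows from 250 bases before to 50 after the annotated start were searched on both strands in RefSeq promoters of GRCm38.p6. Entries were found for 69 of the 83 members, tested or not. The heat shock element with 3 alternating units, GAANNTTCNNGAA or its reverse complement, was in 4 members (Dnajb6, Hspd1, Hspe1 and Hsph1), against 0.662% of all genes and 0.603% of all 32851 promoters. Any 2-unit form, GAANNTTC or TTCNNGAA, which also lies inside the longer one, was in 21 members, against 17.0% of all genes and 15.1% of all promoters. The endoplasmic reticulum stress element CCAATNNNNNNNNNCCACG was in Dnajc3, Hsp90b1 and Hspa5, against 0.137% of all genes and 0.119% of all promoters. Matches are letters in a window and were not tested as binding sites. Shown first are 3 windows with the 3-unit element in capitals, of a gene that fell (Dnajb6) and of 2 that did not pass (Hsph1 and Hspe1), each written 5′ to 3′ on the gene's strand. Dnajb6 is at chr5:29735648-29735947 on the plus strand, Hsph1 at chr5:149636266-149636565 on the minus strand and Hspe1 at chr1:55087898-55088197 on the plus strand, in GRCm38.p6. Hspd1 runs the other way from Hspe1, and its own window overlaps the Hspe1 one.
Dnajb6: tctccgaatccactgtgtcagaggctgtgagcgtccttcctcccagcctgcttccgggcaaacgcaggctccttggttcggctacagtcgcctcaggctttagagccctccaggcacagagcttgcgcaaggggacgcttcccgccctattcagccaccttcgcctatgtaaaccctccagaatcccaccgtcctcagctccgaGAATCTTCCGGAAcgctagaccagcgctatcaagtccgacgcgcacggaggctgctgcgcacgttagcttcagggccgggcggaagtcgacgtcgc
Hsph1: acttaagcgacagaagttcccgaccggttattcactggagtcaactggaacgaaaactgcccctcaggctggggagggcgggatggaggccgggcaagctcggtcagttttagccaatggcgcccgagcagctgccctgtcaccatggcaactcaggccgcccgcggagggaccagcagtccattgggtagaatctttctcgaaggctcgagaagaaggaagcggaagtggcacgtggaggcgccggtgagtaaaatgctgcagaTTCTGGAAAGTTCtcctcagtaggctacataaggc
Hspe1: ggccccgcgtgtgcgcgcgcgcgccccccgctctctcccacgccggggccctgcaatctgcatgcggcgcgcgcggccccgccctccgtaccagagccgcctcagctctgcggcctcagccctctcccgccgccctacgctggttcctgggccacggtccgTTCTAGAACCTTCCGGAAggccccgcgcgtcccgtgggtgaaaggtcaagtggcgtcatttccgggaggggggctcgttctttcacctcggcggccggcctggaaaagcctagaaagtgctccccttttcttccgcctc

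Both small heat shock proteins below have 2-unit forms, in capitals, where the steepest faller Hspb7 has none in its window. Hspb8, at chr5:116422815-116423114 on the minus strand, fell, and Hspb1, at chr5:135887669-135887968 on the plus strand, holds the form at 2 places.
Hspb8: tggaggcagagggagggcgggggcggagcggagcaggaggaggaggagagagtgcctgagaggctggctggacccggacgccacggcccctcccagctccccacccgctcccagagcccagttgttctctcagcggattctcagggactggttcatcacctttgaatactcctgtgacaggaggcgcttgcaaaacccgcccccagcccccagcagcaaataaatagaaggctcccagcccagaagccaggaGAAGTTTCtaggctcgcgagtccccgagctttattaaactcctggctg
Hspb1: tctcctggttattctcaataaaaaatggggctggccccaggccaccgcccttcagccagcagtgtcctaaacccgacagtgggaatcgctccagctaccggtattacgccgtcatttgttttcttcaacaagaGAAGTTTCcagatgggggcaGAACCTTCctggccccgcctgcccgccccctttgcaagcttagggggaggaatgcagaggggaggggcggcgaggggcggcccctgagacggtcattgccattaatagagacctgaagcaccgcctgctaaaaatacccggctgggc

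Among called members with an entry, Hspb8, Dnajb6 and Cct2 hold the 2-unit form. The endoplasmic reticulum stress element, in capitals, is shown for Hspa5, at chr2:34771840-34772139 on the plus strand, and for Hsp90b1, at chr10:86705395-86705694 on the minus strand, where it is present on both strands; neither gene passed.
Hspa5: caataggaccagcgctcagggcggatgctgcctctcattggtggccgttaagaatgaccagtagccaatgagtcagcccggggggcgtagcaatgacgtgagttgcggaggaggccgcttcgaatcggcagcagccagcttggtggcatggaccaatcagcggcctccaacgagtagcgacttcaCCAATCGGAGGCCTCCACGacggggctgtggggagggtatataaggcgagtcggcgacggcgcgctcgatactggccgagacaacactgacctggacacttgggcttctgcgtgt
Hsp90b1: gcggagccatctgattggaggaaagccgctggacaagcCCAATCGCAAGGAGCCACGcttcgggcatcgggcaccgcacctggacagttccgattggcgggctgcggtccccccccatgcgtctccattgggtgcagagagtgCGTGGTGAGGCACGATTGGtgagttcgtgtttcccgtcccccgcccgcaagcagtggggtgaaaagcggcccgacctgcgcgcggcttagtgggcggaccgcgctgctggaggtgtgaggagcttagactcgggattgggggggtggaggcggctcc

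Different probe sets of 1 gene did not always give 1 answer. Over all member probe sets, 13 of 146 tested were lower and 1 was higher, against 3.39% and 3.54% of all tested probe sets (6.93% in either direction). Of 42 members with several tested probe sets, the fitted sign differed in 19 and the call differed in 9, namely Cct2, Cct7, Dnajb4, Dnajb6, Dnajc5, Hsp90aa1, Hspa4, Hspb1 and Hspb8. Signs differed in Cct4, Dnaja2, Dnaja3, Dnajb12, Dnajb4, Dnajc1, Dnajc10, Dnajc11, Dnajc14, Dnajc21, Dnajc3, Dnajc5, Dnajc8, Hspa13, Hspa4, Hspa5, Hspa8, Hspa9 and Hspb8. Counting a gene by any of its probe sets, 11 members had a call. The share of all genes called in this way was not computed, and such a count grows with the probe sets per gene. Averaging all singly named probe sets of a gene, with untested dim probe sets included, left 3 members lower. Hspb8 at -0.47 (limma adjusted p = 0.105) and Dnajc5 at -0.41 (limma adjusted p = 0.0730) were no longer among them.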

How the data were processed

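The values the authors deposited are intensities, 1 MAS 5.0 signal per probe set and array, made with MAS5, per the submitters' processing notes. The software version, the detection calls and the dates of scanning are not stated in the labels, so no batch was examined. Each array had a 2% trimmed mean of 250.0 in the deposited intensities, so a change shared by all transcripts would not be seen.

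Arrays were divided by that mean and taken to log2(signal + 8.2), the 10th percentile of all values, which understates changes of dim genes. The 64 control probe sets were dropped, and the 22519 probe sets at or above the median were compared with limma (version 3.58.1, R 4.3.3; linear fits and trended eBayes; two-sided p with Benjamini-Hochberg adjustment over all of them). Background is the 95th percentile of 27 bacterial control probe sets.

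Symbols come from the array's annotation (34958 probe sets with 1, 932 with several, 9211 with none), 34754 updated through Entrez identifiers to GRCm38.p6. Motifs were searched in RefSeq promoter windows of that assembly.

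Values in every pool are given for called members and for 25 well-known chaperones and subunits whatever they did, then the largest uncalled gene of each family and up to 3 genes of each companion list by p; Dnajb4, Dnajc10, Dnajc15, Hspb2 and Hspb6 were added after their values were seen. The members and lists were chosen with earlier results of these data known. Alternatives changed scaling, pseudocount, filter, variance model, array weights, a covariate, probe set averaging, threshold and each pool in turn. The pools are separate sets of animals.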

Additional observations from a re-analysis of the deposited data

Results flagged for a closer look

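In 10 of 94 groups of 4 pools, over 47 named genes, the end pool lay farther from the others than Dixon's 95% limit allows, which chance does in about 5% of groups. Leptin pool 7 was the high one in 4 genes: Hsph1 at a signal of 954.8, Cct8 at 1326.8, Dnaja1 at 2199.3 and Dnajb2 at 472.2. Dnajc5 was set apart in both groups, with leptin pool 8 high at 1228.7 and saline pool 1 high at 2019.7. Leptin pool 5 was high in Cct6a at 3105.5 and low in Edem1 at 505.9. Among saline pools, pool 1 was low in Hspa5 at 4134.1 and pool 3 was low in Pfdn2 at 628.7.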

How the results depend on the processing

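Hspb7, Hspb8, Hspa4 and Dnajc5 kept their calls when any 1 pool was left out, whereas Cct2, Cct7, Dnajb6 and Dnajc12 did not. Leaving out each pool in turn gave 4 to 7 members lower and 0 to 1 higher, 5 to 10 called companion genes (10 with all pools), and 389 to 718 probe sets lower and 489 to 718 higher (763 and 798 with all pools). The single higher member remained only without leptin 7; 4 were lower without leptin 5 or 6 or saline 2, 3 or 4. Members lower and higher were 4 and 0 with quantile scaling, without a filter and without the mean-variance trend, 4 lower with loess, 25 and 0 with median centring, 11 and 3 with array weights or an adjusted p of 0.1, 3 and 0 at 0.01, 1 and 0 with the actin covariate, and 3 lower with probe sets averaged. Companion genes called were 5 with quantile or loess scaling, 28 with median centring, 4 without the trend, 16 with array weights and 3 with the actin covariate. Probe sets called higher and lower were 406 and 3586 with median centring and 242 and 353 with the actin covariate. Without the trend 389 were lower, and above the 75th percentile 462 were higher. Over 19 alternatives those called lower ranged from 353 to 3586 and those called higher from 242 to 1066. The share of all genes called was computed only for the main fit and the actin covariate, so the other member counts stand without it. Median centring put the member median at -0.34 and the medians of Hspa at -0.23, Hspb at -0.46, Dnaja at -0.34, Dnajb at -0.35, Dnajc at -0.27 and the chaperonin at -0.53. The chaperonin median was -0.16 with quantile and -0.15 with loess scaling. Above the 75th percentile, where fewer genes are tested, the member median was -0.16, Hspa -0.14 and Hspb -0.59, and the median of all genes -0.047. With no filter Hspb was -0.041 and the median of all genes 0.074. With the actin covariate Dnaja was -0.25 and Dnajb 0.031. Uncalled genes near 0 changed sign: Cct4 with quantile scaling (0.0042) and averaging (0.049); Dnaja1 with quantile (0.026) and loess (0.022); Dnajc3 with quantile (0.081), loess (0.084), and without leptin 6 (0.00030), leptin 8 (0.033) or saline 4 (0.00038), where leaving out pools spanned -0.071 to 0.033. Hspa8 did so with quantile (0.0038), loess (0.10), the covariate (0.043), averaging (0.045) and without saline 4 (0.014). Dnajb9, Hsp90b1 and Hspa1b were -0.14, -0.091 and -0.046 with median centring, and Hspa1b was -0.016 without leptin 7 (leaving out pools spanned -0.016 to 0.33). The cause was not tested. No paired analysis was possible because the treatments share no pool number. With 4 arrays per treatment the number of arrays limits the precision, and dim members near background were not tested.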

Other observations

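Cryab, alpha B-crystallin, is a small heat shock protein of muscle and lens that the symbol families leave out, and it was looked up after other values had been seen. It had signals of 516, 651, 905 and 655 in leptin pools, against 967, 781, 1158 and 1158 in saline pools (-0.58 ± 0.18, SE, limma adjusted p = 0.0668). Leptin pool 7 lay above saline pool 2, so the groups overlapped. A second Cryab probe set was at -0.44 ± 0.18 (limma adjusted p = 0.149), and with the actin ratio as a covariate the brighter one was at -0.18 (limma adjusted p = 0.684).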
